A study of Mus musculus with 14 samples.

Results

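Alveolar type 2 (AT2) cells of mouse lung carrying a mutation of Nkx2-1 were compared with control AT2 cells at postnatal day 8 (P8) to P9. The mutant arm held 3 libraries (A and B from P8, C from P9), and the control arm held 3 libraries of the same ages and letters. In the sample names both arms of the AT2 set carry Nkx2-1 together with Sftpc, the gene of surfactant protein C. The sources used here do not give the form of the alleles, the deleted part of Nkx2-1, the driver of recombination, what the controls carried or how the AT2 cells were isolated. Values of 3 libraries are listed in the order A, B, C. The series holds 14 libraries in all, the other 8 being AT1 cells at P5 and whole lung at P14 from a cross of Nkx2-1 with Aqp5. Expression was given as FPKM (mapped fragments scaled by transcript length and library). A locus entered the comparison when at least 3 of the 6 AT2 libraries reached 1 FPKM, which left 11610 of the 32609 loci listed for AT2 cells. At the edge of that rule, Myom3 had a third-highest value of 1.00 FPKM and was kept, and Bcl2a1d had one of 0.999953 FPKM and was left out.

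AT2 cells make pulmonary surfactant, the mixture of phospholipid and surfactant proteins that lowers surface tension in the air spaces, and store it in lysosome-related lamellar bodies. They also divide and give rise to AT1 cells, the flat cells of gas exchange. NKX2-1 is a homeodomain transcription factor of lung, thyroid and ventral forebrain that is known to bind and activate surfactant protein genes, and lung tumours that lose it are known to take on features of gut epithelium.

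Levels were compared as log2(FPKM + 1) with limma, which tests each locus against a spread estimated with help from all loci, and p-values were adjusted over the 11610 loci (Benjamini-Hochberg, two-sided). A locus is called higher or lower where the adjusted p is below 0.05. Fold values are ratios of mean FPKM, mutant over control for genes that rose and control over mutant for genes that fell. Log2 changes are mutant minus control on the log2(FPKM + 1) scale, which understates the change of genes with low values. The labels do not say whether the libraries of an arm came from separate animals, so p-values measure the spread between these libraries. Antisense, overlapping and near-identical genes are uncertain, since neither the annotation behind the loci nor any use of strand is stated.

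Mutant libraries correlated with each other at r = 0.981 to 0.983 across loci, control libraries at 0.962 to 0.974, and mutant with control libraries at 0.876 to 0.891. Summed FPKM was 536862 to 602980 in mutant and 633531 to 983397 in control libraries, and 11102 to 11855 loci reached 1 FPKM in a library. Mitochondrially encoded transcripts made up 12.8, 11.5 and 8.85% in mutants and 33.7, 27.7 and 13.99% in controls (of all FPKM). Control B stood apart: immediate early and heat shock genes summed to 2968 to 3791 FPKM in mutants and to 12620 FPKM in control B, against 5102 and 5236 FPKM in controls A and C. The control libraries fitted their label in that Sftpc was their most abundant nuclear-encoded named gene, with small RNA and predicted loci set aside. Of the 14 airway markers found among the AT2 loci 12 stayed below the filter, and the other 2, Cbr2 and Cyp2f2, fell (1 of them with equal totals); the airway markers summed to 176 to 252 FPKM in mutants and 2066 to 2863 FPKM in controls, nearly all of it Cbr2, a carbonyl reductase of lung (139, 216 and 177 FPKM in mutants, against 2510.2, 2800.4 and 1994 FPKM in controls). The part of airway cells in the falls of AT2 genes was not tested. Among markers of other lineages, all 16 tested endothelial, 9 of 10 leukocyte and 8 of 10 mesenchymal markers were lower in mutants. Endothelial markers summed to 47.9 to 91.4 FPKM in mutants and 135 to 224 FPKM in controls, leukocyte markers to 17.4 to 42.8 FPKM in mutants and 59.8 to 194 FPKM in controls, and mesenchymal markers to 219.6 to 262 FPKM in mutants and 366 to 598 FPKM in controls. Without control A only 4 leukocyte markers, and without mutant A 5, were lower, and without mutant A or C 5 mesenchymal markers. In these bulk samples fewer cells of a type and less RNA per cell cannot be told apart.

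Nkx2-1 itself (chr12:56531958-56536908, minus strand, build GRCm38) was reduced in every mutant library but not lost. It measured 74.4, 58.97 and 73.4 FPKM in mutants, against 247, 289 and 353 FPKM in controls, with no overlap between arms. The mutants held 25.1, 19.9 and 24.8% of the control mean, and the log2 change was -2.08 ± 0.16 (SE; n = 3 per arm; limma adjusted p = 7.31e-05). FPKM of the whole gene does not show which exons the remaining fragments came from.

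Most tested loci were called. Of the 11610 loci, 6356 passed the limma test (54.7%), 3767 of them higher in mutants (32.4%) and 2589 lower (22.3%). Changes of at least 4-fold were fewer, with 152 loci higher and 195 lower, and changes of at least 8-fold numbered 28 higher and 54 lower. The split of directions depended on how libraries were scaled. Of the called loci 59.3% were higher as deposited, 87.3% after rescaling to equal totals, 78.6% after rescaling without mitochondrial and small RNA loci, 48.7% at equal upper quartiles and 49.3% by median ratios. The median log2 change of all tested loci was 0.09 as deposited and 0.61, 0.35, -0.02 and -0.01 under those rescalings. Small changes are therefore relative to the scaling, and the counts of members that follow stand against a background in which most loci were called. The shares of 32.4% higher and 22.3% lower are the background of each such count as deposited.

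**Figure D1:**
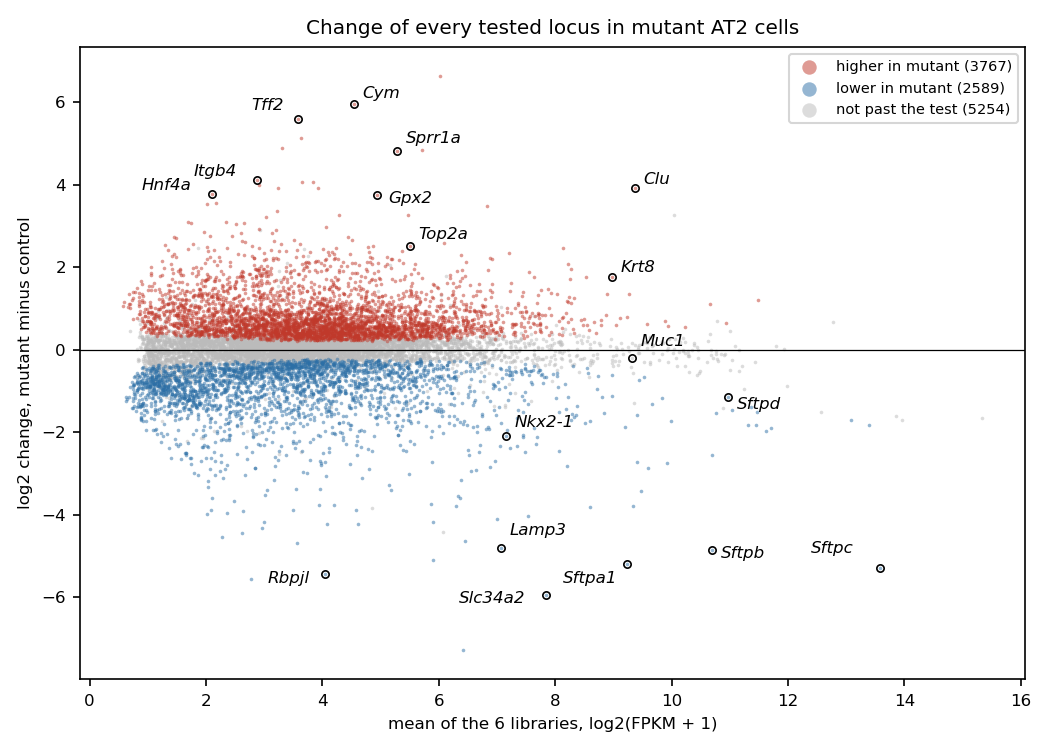
Each point is 1 of the 11610 tested loci, with its mean level over the 6 libraries on the horizontal axis (log2(FPKM + 1)) and its log2 change, mutant minus control, on the vertical axis; red points were higher (3767), blue points lower (2589) and grey points did not pass the limma test. Surfactant genes lie at the lower right, while Cym, Tff2 and Sprr1a lie at the top.

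The genes of surfactant proteins and their processing enzymes had the lowest median of the lists. All 6 tested members fell, with a median log2 change of -4.32. Sftpc, which encodes the small hydrophobic surfactant protein C and was the most abundant nuclear-encoded gene of control AT2 cells, measured 1386, 1999.6 and 2790.5 FPKM in mutants, against 73126, 92418 and 67283 FPKM in controls. Sftpb, the hydrophobic protein required for surfactant film formation, measured 187, 419.8 and 375 FPKM in mutants, against 8802, 9927 and 8043 FPKM in controls. In both cases every mutant library lay more than an order of magnitude below every control library.

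Sftpa1, a collagen-like lectin of the air space, measured 62.3, 126 and 119 FPKM in mutants, against 3519, 4242 and 3219 FPKM in controls. Napsa, the aspartic protease that trims pro-surfactant protein B, fell 13.7-fold to 107 ± 34.04 FPKM in mutants, against 1471 ± 279.7 FPKM in controls (SD, n = 3 each). Ctsh, a cysteine protease of the same pathway, fell 3.04-fold. Sftpd, the other lectin of the family, was the least affected member: 1216, 1512 and 1346 FPKM in mutants, against 2717, 3409.6 and 2858 FPKM in controls, a log2 change of -1.14 ± 0.23 (limma adjusted p = 0.00477). Its groups did not overlap, but the mutants kept 45.3% of the control level, compared with 2.65% for Sftpc, 3.67% for Sftpb and 2.80% for Sftpa1. The calls of Sftpc and Sftpd were lost, at unchanged log2 changes, when no filter on low values was used (limma adjusted p = 0.167 and 0.0744).

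Mbl1, a serum mannose-binding lectin, lies between Sftpa1 and Sftpd on chromosome 14. Sftpa1 spans chr14:41131782-41136452, plus strand; Mbl1 spans chr14:41151458-41159601, plus strand; Sftpd spans chr14:41172214-41185149, minus strand (GRCm38). Mbl1 fell 17.1-fold as well, with 0.807, 0.331 and 0.378 FPKM in mutants, against 7.72, 9.09 and 9.06 FPKM in controls. The 3 neighbours fell by unlike amounts.

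Together the 4 surfactant protein genes made up 0.609, 0.7604 and 0.946% in mutants and 14.1, 15.5 and 14.9% in controls (of summed nuclear-encoded FPKM). The difference of means, mutant minus control, was -14.1 percentage points, and the exact two-sided permutation test gave p = 0.1, the smallest value 3 against 3 libraries allow. The groups did not overlap. With mitochondrially encoded, small RNA and predicted loci set aside, Tmsb4x was the most abundant named gene of the mutants. It encodes the actin-binding peptide thymosin beta-4 and measured 8877 ± 1245 FPKM in mutants and 5625 ± 1225 FPKM in controls (limma adjusted p = 0.203). Clu, an extracellular chaperone, was the fourth, at 2604 ± 461 FPKM in mutants and 172 ± 40.7 FPKM in controls (SD, n = 3 each).

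**Figure D2:**
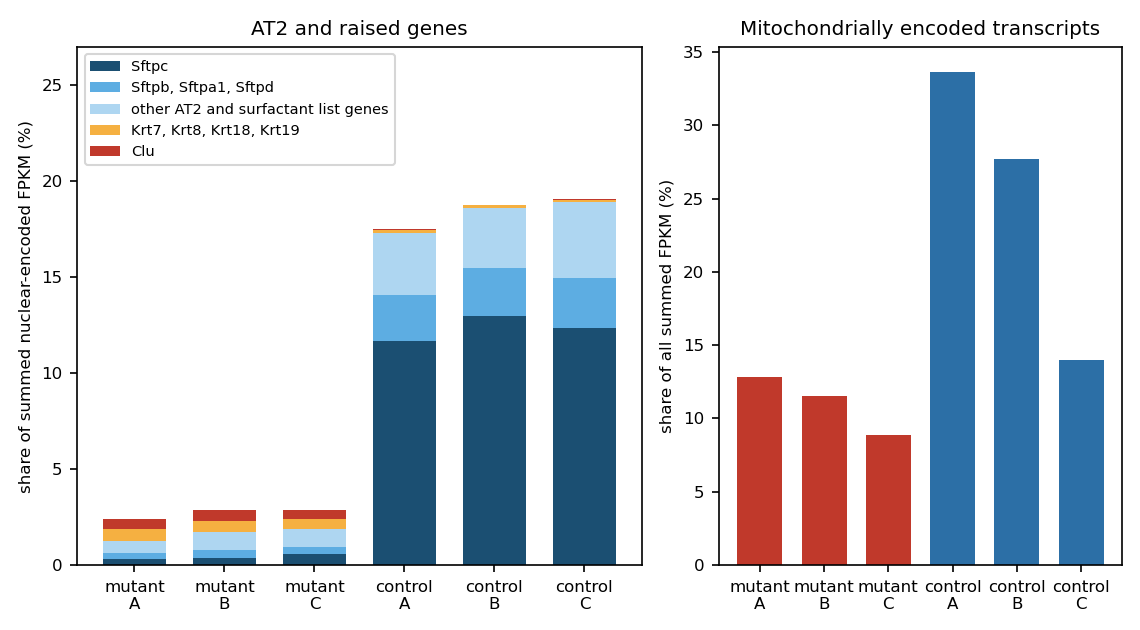
Left, the share of summed nuclear-encoded FPKM taken by Sftpc, by the other surfactant protein genes, by other genes of the AT2 and surfactant lists, by 4 keratins and by Clu in each library; right, the share of all FPKM from mitochondrially encoded transcripts, with mutant libraries in red and control libraries in blue. The 4 surfactant protein genes fill 14.1 to 15.5% of control libraries and under 1% of mutant libraries.

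The promoters below are shown because these genes are among those that changed most and because surfactant promoters are textbook NKX2-1 targets. Of the 9 genes given by rule (the surfactant list and the 3 largest increases), 3 matched the RefSeq promoter table (build GRCm38.p6): Sftpb, Sftpa1 and Cym. Lamp3 and Sprr1a, among the largest decreases and increases, were added after their values were seen. Each run is the 250 bases before the annotated start, 5′ to 3′ on the gene's strand. Capitals mark the letters of a motif of NK2-family homeodomains, searched on both strands as CAAGTG, as its variant form TAAGTG and as the related form CTCAAG. They also mark the AP-1 motif, searched as TGANTCA. Matches can overlap, and each was counted; in Sftpb the AP-1 match overlaps a CTCAAG. The first 3 belong to genes that fell and the last 2 to genes that rose.
Sftpb: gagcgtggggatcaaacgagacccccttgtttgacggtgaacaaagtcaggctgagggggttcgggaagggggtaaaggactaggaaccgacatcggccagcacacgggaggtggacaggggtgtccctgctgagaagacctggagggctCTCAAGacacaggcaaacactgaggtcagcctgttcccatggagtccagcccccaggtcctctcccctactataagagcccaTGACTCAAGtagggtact
Sftpa1: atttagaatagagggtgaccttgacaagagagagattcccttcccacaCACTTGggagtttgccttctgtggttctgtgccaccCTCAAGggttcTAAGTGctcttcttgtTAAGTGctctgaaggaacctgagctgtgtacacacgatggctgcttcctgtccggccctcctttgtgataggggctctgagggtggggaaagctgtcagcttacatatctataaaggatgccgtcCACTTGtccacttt
Lamp3: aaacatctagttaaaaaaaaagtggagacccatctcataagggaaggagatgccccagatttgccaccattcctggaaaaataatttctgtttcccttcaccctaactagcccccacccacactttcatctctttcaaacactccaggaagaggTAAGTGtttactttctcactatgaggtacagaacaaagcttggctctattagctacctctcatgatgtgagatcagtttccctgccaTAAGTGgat
Cym: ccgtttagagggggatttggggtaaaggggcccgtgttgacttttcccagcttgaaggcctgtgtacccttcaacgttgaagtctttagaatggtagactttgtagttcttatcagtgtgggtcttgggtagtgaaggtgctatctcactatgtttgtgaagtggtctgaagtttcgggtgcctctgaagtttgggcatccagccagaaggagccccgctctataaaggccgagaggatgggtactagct
Sprr1a: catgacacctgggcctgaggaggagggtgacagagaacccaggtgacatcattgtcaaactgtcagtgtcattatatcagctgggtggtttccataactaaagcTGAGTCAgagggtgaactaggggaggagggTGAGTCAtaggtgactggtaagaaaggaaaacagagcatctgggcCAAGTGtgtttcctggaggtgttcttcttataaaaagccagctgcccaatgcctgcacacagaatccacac
The windows lie at chr6:72304360-72304609 (plus strand), chr14:41131538-41131787 (plus), chr16:19706366-19706615 (minus), chr3:107221733-107221982 (minus) and chr3:92485882-92486131 (minus). The Sftpa1 window held 5 NK2 matches, those of Sftpb and Lamp3 held 2 each, Sprr1a held 1, and Cym held 0. Sftpb also held 1 AP-1 match and Sprr1a held 2.

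Across the table an NK2 match was common, in 31.8% of 27025 genes and in 28.2% of the 7860 matched genes that were tested. It occurred in 38.8% of 129 matched genes that fell at least 4-fold, in 29.2% of 106 that rose at least 4-fold, and in 27.4% of 3531 that were not called. An AP-1 match occurred in 4.65% of the genes that fell at least 4-fold and in 11.3% of those that rose at least 4-fold, against 5.13% of tested genes. The letters CCAAT, a promoter element common in genes of dividing cells, occurred in 68.4% of 38 matched DNA replication and mitosis genes, against 40.2% of tested genes. These shares describe letters in a window and were given no test.

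Of genes of surfactant lipid and the lamellar body, 19 of 22 tested members fell, with 1 higher and a median log2 change of -0.88; with libraries rescaled to equal totals 9 fell and 3 were higher, and without mutant A 2 were higher. Lamp3, a membrane protein of lamellar bodies, measured 19.2, 20.7 and 36.4 FPKM in mutants, against 673, 725 and 719 FPKM in controls. Lpcat1, which re-acylates lysophosphatidylcholine into surfactant phospholipid, measured 30.7, 27.4 and 32.3 FPKM in mutants, against 498, 583 and 513 FPKM in controls. Abca3, the lipid pump of the lamellar body, measured 45.2, 43.6 and 39.9 FPKM in mutants, against 298, 356 and 294 FPKM in controls. The arms were far apart for these 3 genes.

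Further down the list the falls were smaller. Elovl1, a fatty acid elongase, fell 5.07-fold, Fabp5, a fatty acid carrier, 3.75-fold, and Atp11a, a phospholipid flippase, 3.12-fold. The fatty acid synthase gene Fasn fell 2.79-fold and its regulator Srebf1 2.79-fold. Acsl1, which activates long-chain fatty acids, was the one member that rose, at 10.5 ± 2.11 FPKM in mutants and 5.71 ± 0.391 FPKM in controls (SD, n = 3 each; limma adjusted p = 0.00342).

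Of 20 other genes known as AT2 markers, 17 fell and none rose (median log2 change -3.08). Slc34a2, the apical sodium-phosphate transporter, measured 15.5, 34.5 and 42.2 FPKM in mutants, against 1746, 1754 and 1883 FPKM in controls, the largest fall on the log2(FPKM + 1) scale among named genes whose mean reached 5 FPKM in an arm, small RNA and predicted loci set aside. Lgi3, a secreted leucine-rich protein, measured 9.57, 9.37 and 8.95 FPKM in mutants, against 372, 360.0 and 314 FPKM in controls. The arms were far apart, with mutants even for Lgi3 and uneven for Slc34a2. S100g, a calcium-binding protein, fell 26.6-fold, Ppp1r14c, a phosphatase inhibitor, 19.2-fold, Dram1, a lysosomal membrane protein of autophagy, 16.6-fold, and Mlc1, a membrane protein, 43.4-fold. Hc, which encodes complement C5, fell 13.3-fold, and Egfl6, a secreted EGF-like protein, 2.505-fold.

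AT2 genes did not fall to a common level. Counting each gene once, 48 genes of the 3 lists were tested: 9 kept less than 5% of the control mean, 10 kept 5 to 20%, 14 kept 20 to 50% and 15 kept at least 50%. Muc1, a transmembrane mucin of AT2 cells, measured 542, 739.9 and 518 FPKM in mutants, against 723, 688 and 641 FPKM in controls, overlapping ranges that did not pass (limma adjusted p = 0.364). Scnn1a, the alpha subunit of the epithelial sodium channel, measured 55.7, 75.2 and 35.3 FPKM in mutants, against 86.8, 51.6 and 44.8 FPKM in controls and did not pass either (limma adjusted p = 0.722), the arms again overlapping. Among the 33 genes under 50%, mutant A was the lowest library for 23, mutant B for 3 and mutant C for 7. Nkx2-1 itself was lowest in mutant B.

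**Figure D3:**
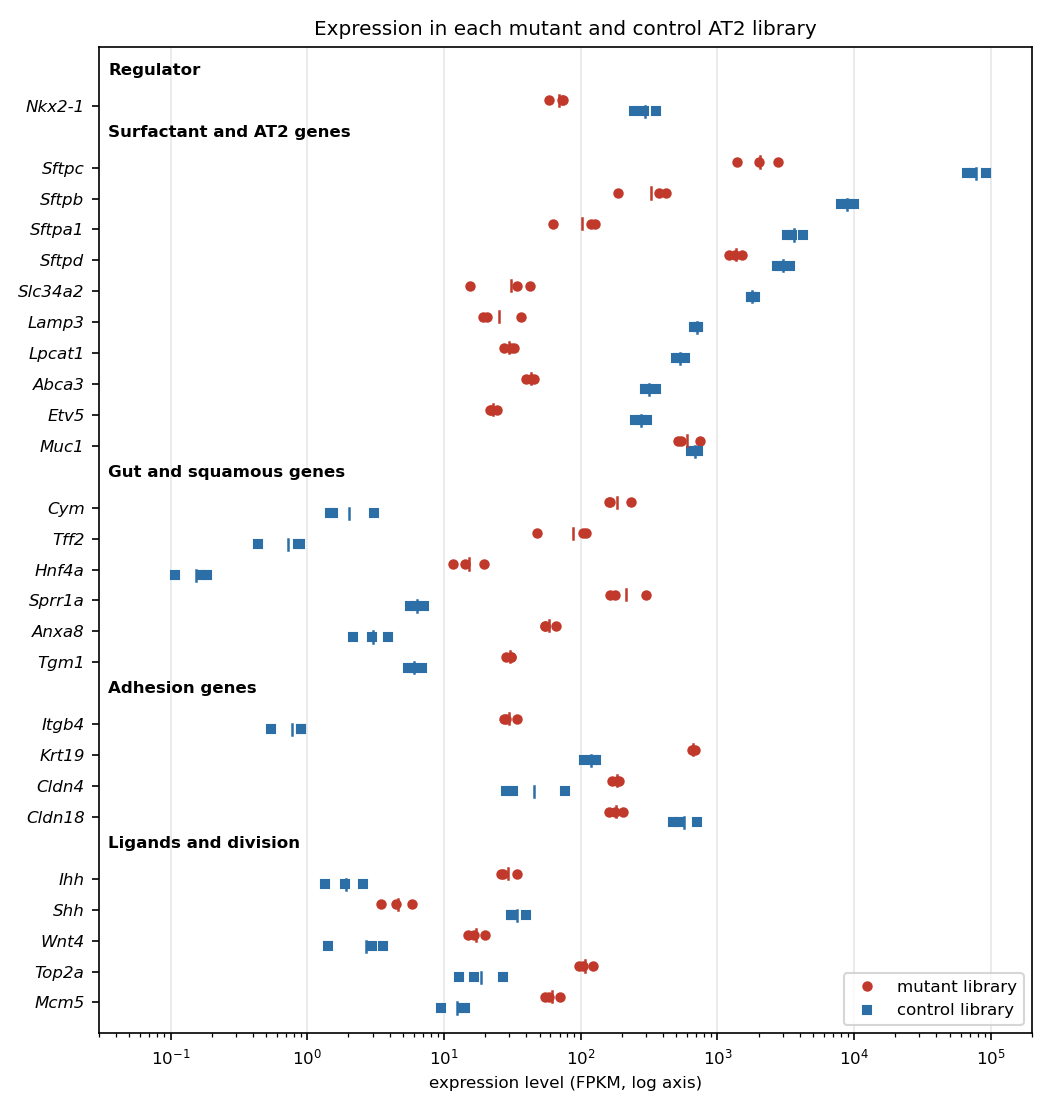
Expression level (FPKM, log axis) of selected genes in each library, with mutant libraries as red circles and control libraries as blue squares below them; vertical ticks are group means (n = 3 each). The arms overlap for Muc1 alone among the genes drawn, and the surfactant genes differ widely in how far the mutants fell.

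Proteins that AT2 cells release for defence of the air space split by family member. Lyz1, a lysozyme, measured 104, 309.7 and 312 FPKM in mutants, against 2033, 1866 and 3376 FPKM in controls. Chil1, a chitinase-like protein, measured 267, 1229 and 957 FPKM in mutants, against 3929, 4138 and 3976 FPKM in controls, and Cxcl15, the lung chemokine lungkine, measured 181, 312 and 325 FPKM in mutants, against 1638, 1853 and 1760.3 FPKM in controls. These genes fell in every mutant, furthest in mutant A. In the same families, Chil4 rose, with 15.7, 74.4 and 38.5 FPKM in mutants, against 2.33, 0.767 and 1.49 FPKM in controls, and the neutrophil and lymphocyte chemokine genes Cxcl5 and Ccl20 rose 10.8- and 6.504-fold from low levels. Chil4 has near-identical relatives, so its fragments may be shared with them. Of the 20 tested members of the airspace defence list 9 fell and 5 rose (median -0.75; 3 rose without mutant B or without mutant C, and the median was -0.32 without control B and -0.31 with equal totals); Lcn2, the iron-siderophore binder lipocalin 2, was among those that fell (3.16-fold).

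The 6 tested genes of MHC class II presentation fell (median log2 change -2.01), and AT2 cells are known to express them. H2-Aa, an alpha chain, measured 85.6, 121 and 126 FPKM in mutants, against 877, 637 and 840.4 FPKM in controls. Ciita, the master regulator of the class, measured 1.31, 1.42 and 1.78 FPKM in mutants, against 8.84, 6.44 and 11.7 FPKM in controls. The arms did not overlap. Leukocyte markers also fell in 9 of 10 cases, at the sums given above; H2-Aa was lowest of the controls in control B, as was the leukocyte sum, and the part of leukocytes in the class II fall was not tested. Of 19 interferon and MHC class I genes 10 fell and none rose, with a median of -0.34 that became 0.19 with equal totals, where 2 fell and 3 rose; without mutant A 5 fell and without control B 6.

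Transcription factors of lung epithelium divided. Of 32 tested, 15 fell and 8 rose, where 22.3% of all tested loci were lower and 32.4% higher. With equal totals 11 fell and 12 rose. The median of -0.19 changed sign with equal totals (0.38) and with equal totals without mitochondrial and small RNA loci (0.09). Rbpjl, a relative of the Notch effector RBPJ known from pancreas, measured 1.22, 1.501 and 1.87 FPKM in mutants, against 89.04, 118 and 121 FPKM in controls. Etv5, an ETS factor downstream of FGF signalling that is known to maintain AT2 cells, measured 21.9, 24.3 and 21.8 FPKM in mutants, against 251, 303 and 275 FPKM in controls. Cebpa, a regulator of AT2 maturation and lipid synthesis, measured 30.3, 39.1 and 42.9 FPKM in mutants, against 168, 274 and 235 FPKM in controls. For each of the 3 the highest mutant lay well below the lowest control.

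The ETS factor Elf5 fell 8.01-fold, Cebpd 5.27-fold, and the Iroquois genes Irx1 and Irx2 5.25- and 3.67-fold. Id2, which blocks DNA binding by helix-loop-helix factors, fell 2.33-fold. Among those that rose were Klf5, a zinc finger factor of gut and lung epithelium (124 ± 3.18 FPKM in mutants and 55.4 ± 14.7 FPKM in controls; SD, n = 3 each), the ETS factor Ehf (2.04-fold), Grhl1, a regulator of epithelial barrier genes (2.73-fold), and Etv4, a close relative of Etv5 (2.47-fold, from 0.923 ± 0.278 FPKM in controls).

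Of the factors that specify gut and secretory cells, 3 rose in the mutants. Hnf4a, a nuclear receptor of stomach, intestine and liver (chr2:163506808-163572910, plus strand), measured 14.2, 19.6 and 11.6 FPKM in mutants, against 0.168, 0.107 and 0.186 FPKM in controls. Foxa3, a forkhead factor of endoderm, measured 5.44, 7.91 and 6.26 FPKM in mutants, against 0.278, 0.456 and 0.409 FPKM in controls. Spdef, a factor of goblet cells, measured 12.2, 22.99 and 14.2 FPKM in mutants, against 2.998, 2.13 and 3.198 FPKM in controls. The controls were near 0 for Hnf4a and Foxa3, and no mutant value reached down to a control value. Hnf4a and Foxa3 reached the filter through the mutants alone, so the calls are given from the fit with no filter on low values (limma adjusted p = 0.000215 for Hnf4a, 0.000425 for Foxa3 and 0.00182 for Spdef). Of 22 listed factors 8 were tested, of which 3 rose and 2 fell. Over all tested loci 32.4% were higher and 22.3% lower. The list's median was 0.01 and turned negative at upper quartile or median ratio scaling (-0.09 each). Where a mutant library is left out, genes silent in controls can no longer reach 1 FPKM in 3 libraries: then 1 factor of this list, 2 stomach genes and 2 intestinal genes were called higher.

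Cym and Tff2, genes of stomach epithelium, had the largest increases on that scale among such named genes. Cym, which encodes the milk-clotting gastric protease chymosin, measured 233, 164 and 160.0 FPKM in mutants, against 1.47, 1.55 and 3.08 FPKM in controls, 91.2-fold higher (limma adjusted p = 7.22e-06). Tff2, a trefoil peptide of gastric mucus, measured 48.05, 109.9 and 104 FPKM in mutants, against 0.439, 0.881 and 0.8595 FPKM in controls. Ctse, a gastric aspartic protease, measured 11.96, 25.7 and 11.8 FPKM in mutants, against 0.932, 1.01 and 1.02 FPKM in controls. The arms did not overlap, and Cym was highest in mutant A and the other 2 genes in mutant B. The filter was reached by 7 of the 18 stomach genes found among the AT2 loci, of which 4 rose and none fell (median log2 change 0.79). With no filter 6 of 15 stomach genes rose and none fell (median 0.05). Of 9 tested intestinal genes 4 rose and 2 fell (median log2 change 0.0035, negative at upper quartile or median ratio scaling). Among all tested loci 32.4% were higher and 22.3% lower. With no filter on low values 6 of 24 intestinal genes rose and 2 fell. The tetraspanin gene Tspan8 measured 367 ± 37.9 FPKM in mutants and 109 ± 24.4 FPKM in controls (SD, n = 3 each), and Agr2, a disulfide isomerase of goblet cells, and the peptide gene Spink4 rose 14.3- and 6.69-fold from under 1 FPKM.

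Genes of squamous and cornified epithelium rose in 7 of 8 tested members (median log2 change 2.63). With no filter 10 of 21 rose and 1 fell (median 0.27). Sprr1a, a cornified envelope protein, measured 177, 301 and 163 FPKM in mutants, against 7.18, 6.28 and 5.66 FPKM in controls. Sprr2a3, of the same family and with near-identical copies, measured 96.5, 563 and 395 FPKM in mutants, against 13.2, 6.31 and 7.96 FPKM in controls. Anxa8, an annexin of stratified epithelium, measured 54.7, 65.8 and 54.8 FPKM in mutants, against 3.87, 2.17 and 2.95 FPKM in controls. Mutants exceeded controls in each case, though Sprr2a3 differed several-fold among mutants. Tgm1, the transglutaminase that crosslinks the envelope, rose 4.97-fold, Ly6d, a surface protein of stratified cells, 3.21-fold, and Krt4, a keratin of stratified mucosa, reached 8.68 ± 2.67 FPKM in mutants, against 0.101 ± 0.123 FPKM in controls (SD, n = 3 each).

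Of 16 keratins of simple epithelium and adhesion genes 13 rose and 1 fell (median log2 change 1.09). Krt19 measured 688, 659 and 648 FPKM in mutants, against 129, 124 and 106 FPKM in controls. Krt8 and its partner Krt18 rose 3.37- and 2.52-fold and Krt7 rose 2.23-fold. Krt23 was the member that fell, at 43.9 ± 6.64 FPKM in mutants and 73.3 ± 13.5 FPKM in controls (SD, n = 3 each), a call lost with equal totals (limma adjusted p = 0.538) and with the P8 libraries alone (0.057). Prom1, a protein of apical protrusions, rose 7.98-fold, the desmosomal plakin Dsp 2.08-fold and Cdh1, which encodes E-cadherin, 1.78-fold.

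Claudins, the sealing proteins of tight junctions, moved in both directions. Cldn18, the claudin of alveolar and gastric epithelium, measured 179, 205 and 162 FPKM in mutants, against 705, 525 and 472 FPKM in controls. Cldn3 fell 2.27-fold. In the other direction Cldn4 measured 171, 192 and 186 FPKM in mutants, against 31.8, 77.2 and 28.3 FPKM in controls, Cldn23 rose 6.57-fold, Cldn6 2.94-fold and Cldn7 1.77-fold. The arms did not overlap for any of these claudins, and for Cldn4 the control nearest to the mutants was control B. Of the 17 tight junction genes tested 9 rose and 2, Cldn18 and Cldn3, fell (median log2 change 0.41).

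Itgb4, the integrin chain of hemidesmosomes, which anchor epithelia to laminin, measured 33.9, 27.5 and 28.4 FPKM in mutants, against 0.5397, 0.893 and 0.898 FPKM in controls. Its partner Itga6 measured 26.4, 26.5 and 29.9 FPKM in mutants, against 13.5, 11.4 and 14.2 FPKM in controls. Itga9, which binds tenascin and fibronectin, went the other way, with 4.84, 4.57 and 4.88 FPKM in mutants, against 47.7, 45.6 and 47.9 FPKM in controls. Each of the 3 was even within its arm, and the arms did not overlap. Itgb6, the epithelial chain that activates latent TGF-beta, rose 2.11-fold. Of the 19 basement membrane genes 9 rose and 6 fell (median log2 change 0.32), where 32.4% of all tested loci were higher and 22.3% lower. Without mutant C 3 fell, as with equal totals. Lamc1, the common laminin gamma chain, rose 2.98-fold, Lama5, a laminin alpha chain, 1.91-fold, the perlecan gene Hspg2 2.73-fold and the Fraser protein gene Fras1 4.75-fold. Of the collagen IV genes, Col4a1 fell 2.18-fold, Col4a2 3.05-fold and Col4a3 3.17-fold. Endothelial cells also express Col4a1 and Col4a2, and endothelial markers fell alongside at the sums given above; their part in these falls was not tested.

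Of genes reported in cells on the way from AT2 to AT1 state, 16 of 20 rose and 2 fell (median log2 change 1.29). Clu measured 2605, 3064 and 2142 FPKM in mutants, against 165, 136 and 216 FPKM in controls, 15.1-fold higher (limma adjusted p = 2.44e-05). Plaur, the urokinase receptor, measured 69.3, 54.1 and 47.0 FPKM in mutants, against 9.66, 6.63 and 8.197 FPKM in controls. Lgals3, which encodes galectin 3, rose 3.54-fold, S100a6 3.998-fold and Trp53, the p53 gene, 2.59-fold. Nupr1, a stress-induced chromatin protein that belongs to the same list, fell 7.93-fold to 35.5 ± 1.64 FPKM in mutants, against 282 ± 74.3 FPKM in controls (SD, n = 3 each). S100 genes as a family divided, with S100a6 and S100a10 (2.67-fold) higher and S100g lower.

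Genes of the AT1 cell were detected in both arms. Ager, the receptor that marks AT1 cells, measured 325, 485 and 325 FPKM in mutants, against 2959, 2483 and 2120.4 FPKM in controls, Rtkn2, another gene of AT1 cells, fell 5.34-fold, Sec14l3, a lipid-binding protein of airway and alveolus, 8.36-fold and the homeodomain cofactor Hopx 3.805-fold. Aqp5, the AT1 water channel, measured 284, 233 and 159 FPKM in mutants, against 353, 241 and 217 FPKM in controls, overlapping ranges that did not pass (limma adjusted p = 0.406). Of 24 AT1 genes 12 fell and 3 rose, with a median of -0.71 (-0.13 with equal totals), and the highest control was control A for Ager, Rtkn2, Hopx and Aqp5. Whether these transcripts came from AT2 cells or from AT1 cells in the libraries was not tested.

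**Figure D4:**
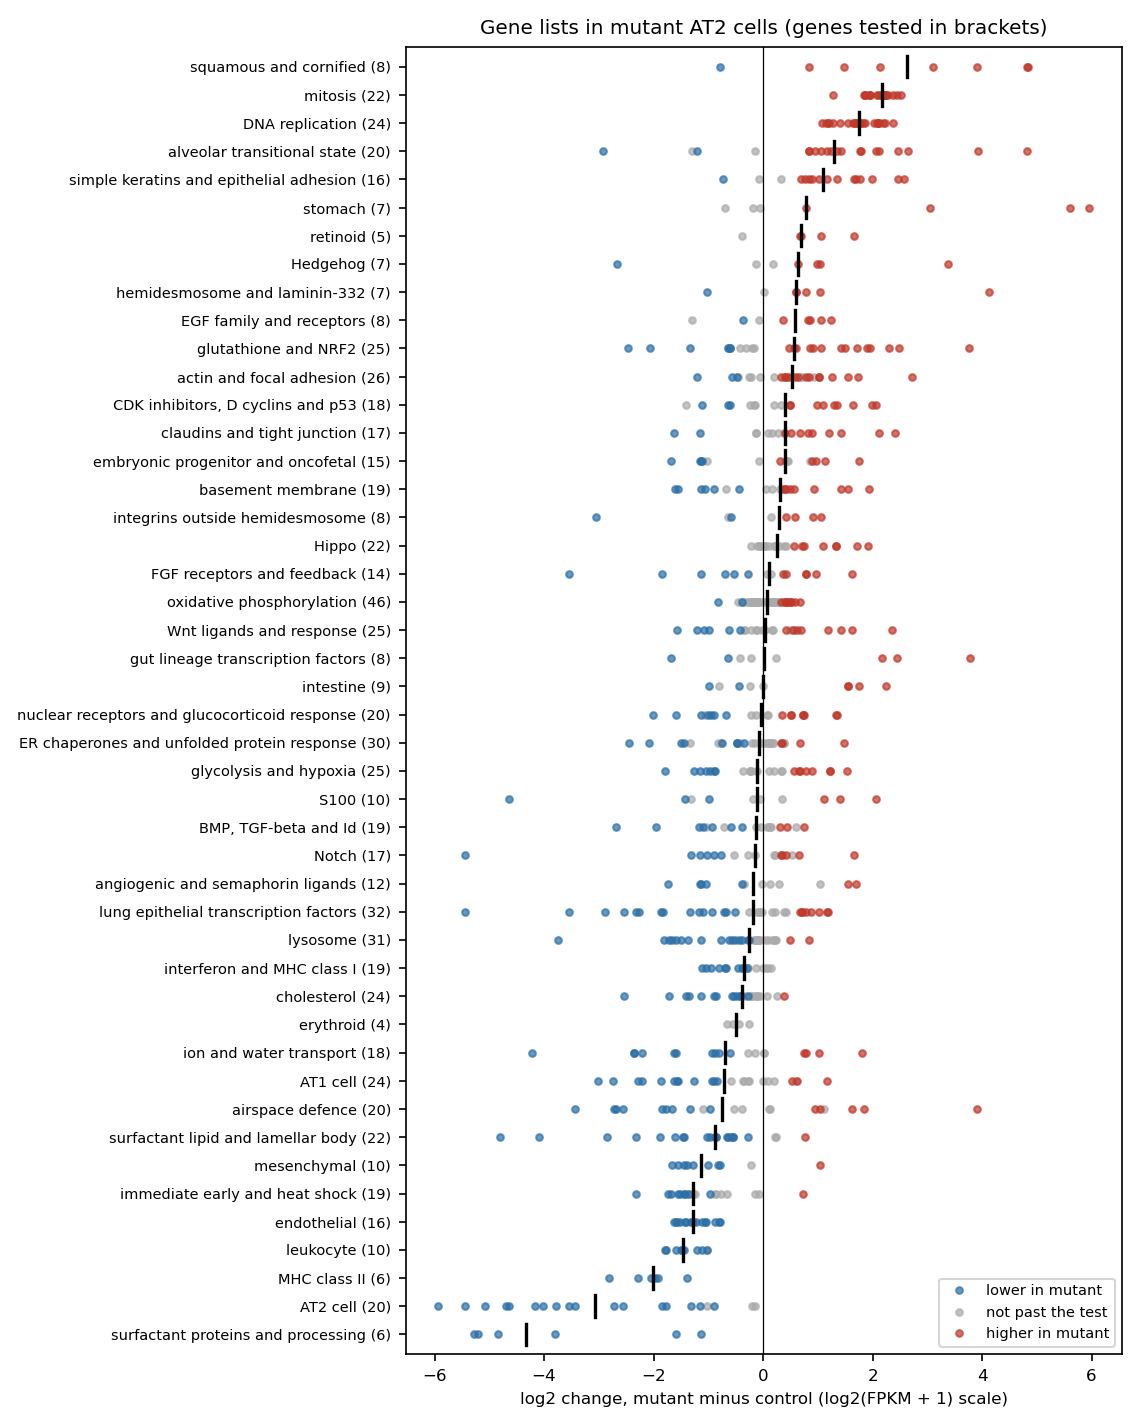
Log2 change, mutant minus control, of every tested member of each gene list with at least 4 tested members, ordered by the list's median (black tick); red members were higher, blue lower and grey not past the limma test. Surfactant and AT2 genes lie at the bottom, division and squamous genes at the top, and many signalling lists hold members on both sides of 0.

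Every tested gene of DNA replication (24) and of mitosis (22) rose, with median log2 changes of 1.75 and 2.17, and none lost its call when a single library was left out or libraries were rescaled. Mcm5, a subunit of the replicative helicase, measured 59.02, 54.5 and 70.7 FPKM in mutants, against 9.47, 14.1 and 13.9 FPKM in controls. Top2a, the topoisomerase of dividing cells, measured 103, 96.6 and 124 FPKM in mutants, against 16.5, 12.8 and 26.8 FPKM in controls. Mutants were close to one another, and control C was the highest control for Top2a. The GINS subunit gene Gins2 rose 5.76-fold, the DNA ligase gene Lig1 4.77-fold, the mitotic kinase gene Plk1 5.57-fold, the cytokinesis gene Anln 5.99-fold and the proliferation marker Mki67 4.48-fold. Summed over their genes, replication transcripts came to 1128 to 1265 FPKM in mutants and 317 to 428 FPKM in controls, and mitosis transcripts to 1059.7 to 1314 FPKM in mutants and 211 to 367 FPKM in controls.

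The D-type cyclin genes Ccnd1 and Ccnd2 rose too. Ccnd1 measured 160.4, 124 and 167 FPKM in mutants, against 54.0, 66.5 and 61.5 FPKM in controls, and Ccnd2 rose 4.59-fold with a lower value in mutant C (74.6, 69.6 and 38.1 FPKM in mutants A to C). Cdkn2c, an inhibitor of CDK4 and CDK6, rose 3.26-fold. Mycl, a MYC family factor, measured 3.84 ± 0.416 FPKM in mutants and 0.222 ± 0.00555 FPKM in controls (SD, n = 3 each). The 18 tested genes of this list held 9 that rose and 3 that fell (median log2 change 0.41). Mycl reached the filter through the mutants alone. With no filter on low values 8 of 19 rose and 3 fell (median 0.33).

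Several pathways had related ligands that moved in opposite directions. In the Hedgehog pathway, Shh, the ligand of lung epithelium, measured 5.83, 4.46 and 3.48 FPKM in mutants, against 39.8, 31.2 and 31.1 FPKM in controls. Ihh, the ligand of gut and bone, measured 26.3, 34.3 and 26.8 FPKM in mutants, against 1.35, 2.55 and 1.897 FPKM in controls. The arms were apart for both ligands, in opposite directions. Of 7 tested Hedgehog genes 4 rose and 1 fell (median log2 change 0.64; with no filter 4 and 3). Smo, the signal transducer, and Hhip, a ligand-binding antagonist, rose 2.04- and 3.11-fold.

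Among Wnt genes, whose short-range ligands maintain AT2 stem cells, Wnt4 measured 19.98, 16.5 and 15.04 FPKM in mutants, against 3.596, 2.99 and 1.42 FPKM in controls. Lgr5, a receptor that marks gut stem cells, measured 5.68, 4.904 and 6.26 FPKM in mutants, against 0.927, 1.67 and 0.922 FPKM in controls. Rnf43, a ligase that removes Wnt receptors, and the receptor gene Fzd2 rose 2.35- and 2.796-fold. Wnt3a and Wnt7a fell 6.07- and 3.51-fold, and the feedback inhibitor Nkd1 fell 2.201-fold. Of 25 tested members 8 rose and 6 fell, against 13 and 3 with equal totals. Both shares as deposited were near those of all tested loci (32.4% higher and 22.3% lower). The median of 0.03 turned to -0.08 at upper quartile or median ratio scaling.

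Fgfr2, the FGF receptor of alveolar epithelium, measured 54.6, 51.9 and 51.4 FPKM in mutants, against 169.8, 204 and 199.6 FPKM in controls, and Fgf9, a ligand of the embryonic lung, rose to 4.15 ± 0.892 FPKM in mutants, against 0.6503 ± 0.131 FPKM in controls (SD, n = 3 each). Bmp1, a procollagen protease, and Bmp3, a BMP antagonist, fell 6.55- and 6.02-fold. In the EGF family the ligand gene Tgfa, the receptor gene Erbb2 and the receptor inhibitor Lrig1 rose 1.94-, 1.795- and 2.52-fold. Lfng, a glycosyltransferase that tunes Notch receptors, rose 3.67-fold. Of the guidance ligands, Sema3c and Sema3f rose 3.31- and 3.07-fold, and the ephrin ligand gene Efna1 fell 3.44-fold.

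Hippo pathway genes had 8 of 22 members higher and none lower (median log2 change 0.26). The share higher was near that of all tested loci, of which 32.4% were higher and 22.3% lower. The co-activator gene Yap1 measured 37.4, 32.0 and 36.7 FPKM in mutants, against 35.3, 32.5 and 37.2 FPKM in controls and did not pass (limma adjusted p = 0.907), while its relative Wwtr1, which encodes TAZ, rose 1.68-fold. Their DNA-binding partner Tead2 measured 40.6, 36.4 and 39.7 FPKM in mutants, against 10.2, 9.12 and 9.31 FPKM in controls, and Ajuba, a LIM protein that restrains the pathway's kinases, rose 3.44-fold. With equal totals 17 members were higher, Yap1 among them (log2 change 0.58, limma adjusted p = 0.0264), and without control B 1 was lower. In the retinoid list the synthesis enzyme Rdh10 and the receptor Rarb rose 3.302- and 2.83-fold.

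Antioxidant genes rose in 14 of 25 cases and fell in 6 (median log2 change 0.57). Gpx2, the glutathione peroxidase of gut epithelium, measured 103, 107 and 126 FPKM in mutants, against 6.74, 8.15 and 7.13 FPKM in controls. Nqo1, a quinone reductase, measured 11.9, 9.78 and 11.6 FPKM in mutants, against 1.25, 1.24 and 1.02 FPKM in controls. Gstm1, Gsta4 and Srxn1, other targets of the stress factor NRF2, rose 5.15-, 3.91- and 3.76-fold. Hmox1, which encodes the inducible haem oxygenase and is another NRF2 target, fell, with 4.998, 7.56 and 6.72 FPKM in mutants, against 32.96, 52.2 and 36.3 FPKM in controls. With equal totals 3 of the members fell.

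Of 24 cholesterol genes 13 fell and 1, Hsd17b7, rose, a call lost without any one of 5 libraries; the median of -0.39 became 0.16 with equal totals, where 5 fell and 3 rose. Insig1, the sterol sensor partner, measured 9.30, 9.49 and 8.22 FPKM in mutants, against 48.8, 68.01 and 57.0 FPKM in controls. The exporter gene Abca1 and the lysosomal cholesterol carrier gene Npc2 fell 3.47- and 3.304-fold. Among lysosomal genes Atp6v1c2, a proton pump subunit, measured 9.47, 18.6 and 18.99 FPKM in mutants, against 223, 255 and 171 FPKM in controls, the protease gene Ctsc fell 3.55-fold, and the saposin precursor gene Psap rose 1.78-fold. Epas1, the hypoxia factor HIF-2 alpha, fell 3.63-fold beside the fall of endothelial markers, and Eno1, an enolase of glycolysis, rose 2.35-fold.

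Of 18 genes of ion and water transport 10 fell and 4 rose (median log2 change -0.70; 6 fell and 6 rose with equal totals). Slc26a9, an apical chloride channel, measured 2.95, 2.52 and 3.26 FPKM in mutants, against 66.6, 65.96 and 84.3 FPKM in controls. The sodium channel subunits Scnn1b and Scnn1g fell 7.33- and 5.42-fold, in contrast to Scnn1a above. Ano1, a calcium-gated chloride channel, measured 147, 148 and 115 FPKM in mutants, against 47.9, 35.3 and 33.1 FPKM in controls. Of 26 actin and focal adhesion genes 14 rose and 3 fell (median log2 change 0.53). Myh10, a non-muscle myosin, measured 74.4, 48.99 and 44.9 FPKM in mutants, against 9.06, 6.07 and 7.37 FPKM in controls, Flna, which encodes the crosslinker filamin A, rose 3.32-fold and the linker gene Ezr rose 2.41-fold.

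Of 19 immediate early and heat shock genes 9 fell and 1 rose (median log2 change -1.28, or -0.66 without control B and -0.69 with equal totals). Dusp1, a MAP kinase phosphatase, measured 77.3, 88.9 and 53.5 FPKM in mutants, against 278, 653 and 263 FPKM in controls, and Nr4a1, an orphan receptor, 242, 204 and 122 FPKM in mutants, against 503, 939 and 331 FPKM in controls. Control B was the highest library for both. Over single libraries left out, 6 to 13 members fell.

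Other genes led the ranking by size without belonging to a pathway list. Scara3, a scavenger receptor family member, measured 74.6, 74.3 and 67.01 FPKM in mutants, against 1.02, 0.669 and 1.73 FPKM in controls. Fxyd6, a regulator of the sodium pump, rose 65.2-fold, Cyp2s1, a cytochrome of epithelia, 23.1-fold and Pla2g4c, a phospholipase, 35.1-fold. Grin1os, an antisense locus whose fragments cannot be told apart here from those of its partner, rose 24.1-fold. Rgcc, a regulator of the cell cycle, fell 23.1-fold with controls between 60.4 and 179 FPKM. Ret, a receptor tyrosine kinase, is listed as 2 loci; its fragments may be split between them, and both were lower in every mutant.

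The change in AT2 cells was set against that in mutant AT1 cells of P5, from the Aqp5 cross. The values come from blocks of FPKM made separately, so levels were not set side by side and the test asked whether the AT2 change differed from the AT1 change, with cell type, age and cross confounded. Of 10336 loci tested in both, 857 differed (8.29%; limma), 415 with the AT2 change above the AT1 change and 442 below it. This count rested on single libraries: it was 420, 532 and 436 without AT2 mutants A, B and C, and 541 and 407 without AT2 controls A and B. It was 2614 after rescaling without mitochondrial and small RNA loci, with 2314 above and 300 below, so that small differences depend on the scaling.

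Nkx2-1 changed by -2.08 in AT2 and -2.53 in AT1 cells on the log2 scale, and the difference did not pass (limma adjusted p = 0.554). Surfactant protein genes differed: Sftpc changed by -5.28 and -1.15, a difference of -4.13 ± 0.71 (SE; limma adjusted p = 0.00624), and Sftpb, Sftpa1, Lamp3 and Lpcat1 differed the same way (limma adjusted p = 0.00543, 0.0121, 0.0119 and 0.00832). Sftpd changed by -1.14 in AT2 and 0.64 in AT1 cells, a difference that did not pass (limma adjusted p = 0.0822). Whether transcripts of these surfactant and lamellar body genes in the AT1 libraries came from AT1 or AT2 cells was not tested. Id2 and Nupr1 went opposite ways, at -1.18 and -2.92 in AT2 against 1.26 and 1.13 in AT1 cells (limma adjusted p of the difference = 0.00259 and 2.94e-05). Muc1 changed by -0.21 in AT2 and 1.88 in AT1 cells (limma adjusted p = 0.0351), and Lamc1 by 1.56 in AT2 and 0.27 in AT1 cells (limma adjusted p = 0.00304). These 4 were chosen after their values were seen.

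For other genes the difference did not pass the limma test, which does not show that the changes were alike. Tff2 changed by 5.60 in AT2 and 4.54 in AT1 cells, a difference of 1.06 ± 0.58 (SE; limma adjusted p = 0.269). The differences were 0.74 ± 0.56 for Hnf4a, -0.75 ± 0.37 for Krt8, 0.68 ± 0.50 for Top2a and -0.18 ± 0.46 for Ager. Shh and Ihh changed by -2.66 and 3.37 in AT2 cells and by -2.30 and 2.68 in AT1 cells, the ligands again in opposite directions. Clu changed by 3.92 in AT2 and 5.91 in AT1 cells, a difference of -1.99 ± 0.70 that did not pass (limma adjusted p = 0.098), whereas that of Cym did, with 5.96 in AT2 and 8.96 in AT1 cells (limma adjusted p = 0.0334).

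**Figure D5:**
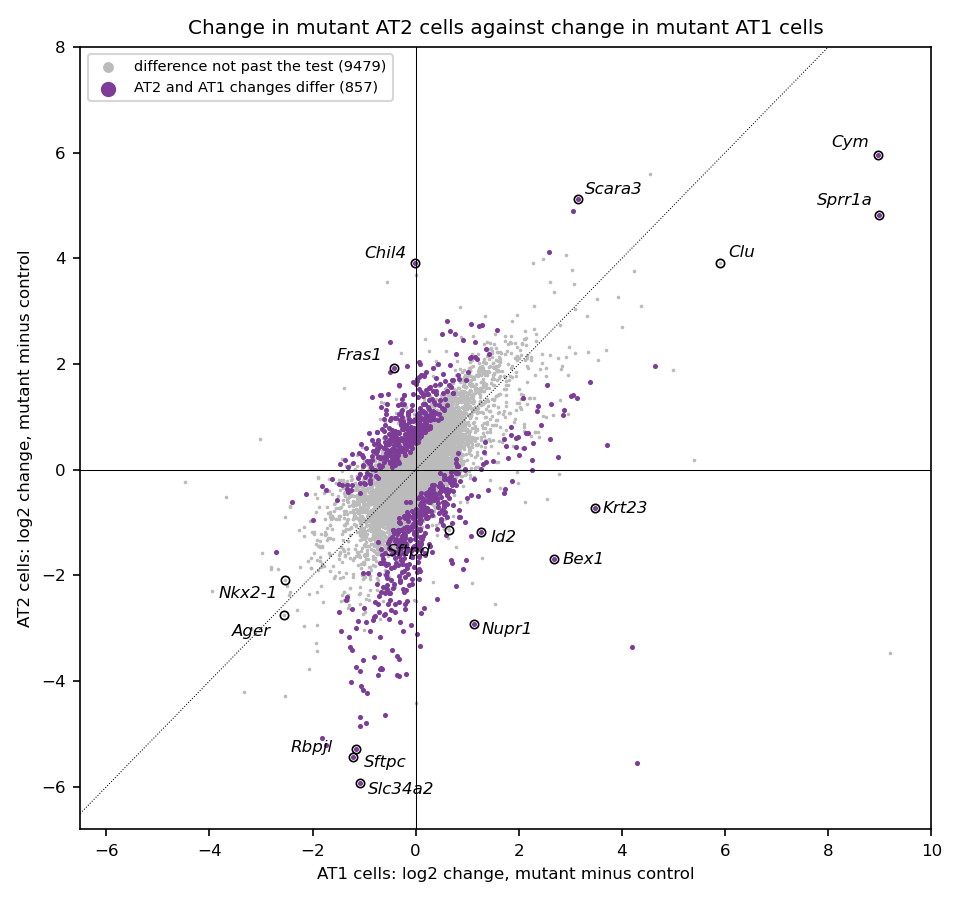
Log2 change, mutant minus control, in AT2 cells (vertical axis) against that in AT1 cells (horizontal axis) for 10336 loci; purple loci differed between the cell types in the limma test (857) and the dotted line marks equal changes. Sftpc, Rbpjl and Slc34a2 lie far below the line, Chil4 and Fras1 above it, and Bex1, Krt23, Nupr1 and Id2 on opposite sides of 0 in the AT2 and AT1 cells.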

How the data were processed

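RNA-seq was done on 14 libraries with reads of 76 bases, and the report rests on the 6 AT2 libraries and, for 1 comparison, the 6 AT1 libraries. The authors deposited FPKM values per locus. Per the submitters' processing notes the tools were TopHat2 2.0.14, Bowtie2 2.2.3, Cufflinks 2.2.1, Cuffnorm and Cuffdiff, on the mouse build mm10; the deposited table holds separate FPKM blocks for AT2 and AT1 cells, with their own locus lists, and libraries were not scaled across blocks here. FPKM keeps no count of fragments, so the depth behind a value is unknown and no counting interval is given. Cuffnorm scaling is not undone here; alternative scalings test its effect.

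Loci with at least 1 FPKM in 3 of the 6 AT2 libraries were tested on log2(FPKM + 1) with limma 3.58.1 (R 4.3.3; variance trend with level, groups mutant and control, Benjamini-Hochberg over all tested loci, two-sided, threshold 0.05). The AT2 and AT1 changes were compared by the interaction term of a limma fit over 12 libraries. Shares were compared by an exact permutation test (SciPy 1.17.1). The limma step of the AT2 comparison was tested on simulated data in which loci varied independently. It recovered 72 of 108 simulated log2 changes of 1 and 78 of 92 of 2, and called 7 of 11410 unchanged loci. The changed loci were a far smaller part there than the 54.7% called in the data. The adjustment of p-values depends on that part, so these shares check the step and do not carry over to the data. A gene that did not pass can still have changed. Alternatives covered the pseudocount, the filter, 4 rescalings, the variance prior, postnatal day, a block for the library letter, and each library left out. Gene coordinates come from the GENCODE M21 annotation of GRCm38, the same assembly as mm10, and promoters from RefSeq.

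Genes named are the 15 largest changes in each direction among those called, with a mean of at least 5 FPKM in an arm and arms that do not overlap, and members of the gene lists; for the AT2 and AT1 comparison, the 5 largest differences in each direction. The members and lists were chosen with earlier results of these data known. Whole lung libraries were not used, and a few list members are not reported here by name.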

Additional observations from a re-analysis of the deposited data

Results flagged for a closer look

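The AT2 and AT1 changes differed in the limma interaction test (adjusted p below 0.05) by most, in each direction, for the following 10 genes. Values are log2 changes, mutant minus control, and differences are AT2 minus AT1 with their standard errors. None of these differences was weighed further, and cell type, age and cross cannot be told apart in them.

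The AT2 change exceeded the AT1 change for Chil4, a chitinase-like protein, with 3.91 in AT2 and -0.0039 in AT1 cells (difference 3.91 ± 0.59). Chil4 was near 0 in both AT1 arms (mean 0.0146 FPKM in mutants and 0.0174 FPKM in controls). Its difference therefore restates the AT2 change. Cp, which encodes the copper carrier ceruloplasmin, changed by 2.41 in AT2 and -0.49 in AT1 cells (difference 2.91 ± 0.80). Fras1, a basement membrane protein, changed by 1.93 in AT2 and -0.43 in AT1 cells (difference 2.35 ± 0.36). Abi3bp, a secreted matrix protein, changed by 1.84 in AT2 and -0.50 in AT1 cells (difference 2.34 ± 0.20). Sphk1, the kinase that makes sphingosine 1-phosphate, changed by 1.38 in AT2 and -0.85 in AT1 cells (difference 2.23 ± 0.48).

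The AT2 change lay below the AT1 change for Slc34a2, with -5.93 in AT2 and -1.07 in AT1 cells (difference -4.86 ± 0.76). Bex1, a small X-linked protein, changed by -1.69 in AT2 and 2.69 in AT1 cells (difference -4.38 ± 0.35). Rbpjl changed by -5.44 in AT2 and -1.22 in AT1 cells (difference -4.22 ± 0.67). Whether Slc34a2 and Rbpjl transcripts in the AT1 libraries came from AT1 or AT2 cells was not tested. Krt23 changed by -0.72 in AT2 and 3.48 in AT1 cells (difference -4.20 ± 0.58). Sprr1a was higher in the mutants of both cell types, by 4.81 in AT2 and 8.99 in AT1 cells (difference -4.18 ± 0.52).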

How the results depend on the processing

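The number of loci called in AT2 cells stayed within 1.5 times of 6356 under every alternative run, from 4717 with the P8 libraries alone to 7349 with equal totals, and between 4944 and 6052 over single libraries left out. Its split did not: with libraries rescaled to equal totals 6413 loci were higher and 936 lower, and without mitochondrial and small RNA loci in those totals 1471 were lower. The number whose AT2 and AT1 changes differed (857) was 2614 with equal totals that leave out mitochondrial and small RNA loci and 407 to 1038 over single libraries left out. The surfactant share of nuclear-encoded FPKM differed by -14.1 percentage points as reported, by -10.4 with mitochondrial loci in the total and by -15.2 without mitochondrial and small RNA loci. With the library letter as a replicate block, 6249 loci were called in AT2 cells and 1345 differed between AT2 and AT1 cells; the letters were not taken as pairs, since they carry age (A and B are P8, C is P9) but deviations of same-lettered mutant and control libraries correlated at 0.112, -0.117 and 0.127. Genes with no call changed sign: Muc1 had a log2 change of 0.38 with equal totals and 0.088 without mitochondrial and small RNA loci in them; Aqp5 had 0.32 and 0.024 under those scalings, and Scnn1a 0.43 and 0.14. Scnn1a ranged over single libraries left out from -0.39 to 0.14, and Yap1 from -0.036 to 0.084, with -0.10 at equal upper quartiles and -0.094 by median ratios. The cause of these changes was not tested. The depth behind FPKM is unknown, so loci near 1 FPKM have an unknown counting error, and 3 libraries an arm limit what a share can show.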

Other observations

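Some genes were close to silent in one arm (mean below 0.5 FPKM) and at 5 FPKM or more in the other. There were 11 such genes silent in controls, Hnf4a and Foxa3 among them, and 15 silent in mutants; they pass the filter only through the other, so their number is a description. Vtcn1, which encodes an inhibitory ligand of T cells, measured 12.8, 15.3 and 10.7 FPKM in mutants, against 0.141, 0.2498 and 0.208 FPKM in controls. Klk10, a secreted protease of the kallikrein family, measured 15.6, 15.1 and 12.9 FPKM in mutants, against 0.257, 0.232 and 0.467 FPKM in controls. The mutants were close to one another for both genes.

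In the other direction Esr1, which encodes the oestrogen receptor alpha, measured 0.349, 0.171 and 0.389 FPKM in mutants, against 13.1, 12.4 and 10.8 FPKM in controls. Fabp12, a fatty acid binding protein, measured 0.265, 0.238 and 0.204 FPKM in mutants, against 14.6, 14.9 and 11.97 FPKM in controls. Mesp1, a helix-loop-helix factor known from early mesoderm, measured 0.204, 0.276 and 0.312 FPKM in mutants, against 8.97, 6.95 and 13.3 FPKM in controls, and Kcnj13, an inward rectifier potassium channel, 0.305, 0.275 and 0.272 FPKM in mutants, against 4.91, 7.04 and 4.61 FPKM in controls. In every mutant these 4 genes lay below 1 FPKM.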
